A study of Mus musculus with 20 samples.

Results

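The genes described here are 10 members of the Notch signalling pathway: the receptors Notch1, Notch2 and Notch3, the ligands Jag1, Jag2 and Dll4, the DNA-binding partner Rbpj, and the target genes Hes1, Hey1 and Heyl. They were taken by name from the 46603 gene identifiers of the count files, matched to GENCODE M21 symbols, and all 10 were found. Bulk RNA sequencing of poly(A) RNA was done on liver from male mice aged 2 months, in 20 samples and 4 groups of 5. Wild type (WT) mice were C57BL/6J bought from a vendor. EedHepKO mice, written KO, carried Alb:Cre, a Cre recombinase under the albumin promoter, together with the Eedflox allele, in which loxP sites flank exons 3 and 6 of Eed, and the labels give hepatocytes as the cells without functional EED. Which other liver cells keep Eed was not tested. At baseline, partial hepatectomy (PHx) supplied lobes 1, 2 and 3, and the tissue after PHx was lobes 4, 5 and 6, taken at 30 h (1 mouse per genotype), 40 h (2 mice per genotype) and 48 h (2 mice per genotype). Genotype and colony of origin cannot be told apart, and neither can the response to PHx and the lobe sampled.

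In Notch signalling a ligand on 1 cell binds a receptor on its neighbour, proteases of the ADAM family and the gamma-secretase complex cut the receptor, and the freed intracellular part joins RBPJ and Mastermind-like proteins on DNA to switch on genes such as those of the HES and HEY families. In liver the pathway is known for the formation of bile ducts, where JAG1 and NOTCH2 act, and for signalling between endothelial, mural and stellate cells. EED is a core subunit of polycomb repressive complex 2 (PRC2), which methylates histone H3 at repressed genes and is known to occupy promoters rich in CG dinucleotides.

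The sequence before the start site is shown for 4 members so that their CG content can be set beside their values: Notch1, Notch3 and Jag1 were higher in KO than in WT after PHx, and Notch2 was not called with the main scaling. The sequences are RefSeq's (build GRCm38.p6), read 5′ to 3′ on the gene's own strand, with CG dinucleotides in capitals, and they leave out bases that GENCODE M21 annotates as exon.
Notch1, chr2:26503825-26504072, minus strand: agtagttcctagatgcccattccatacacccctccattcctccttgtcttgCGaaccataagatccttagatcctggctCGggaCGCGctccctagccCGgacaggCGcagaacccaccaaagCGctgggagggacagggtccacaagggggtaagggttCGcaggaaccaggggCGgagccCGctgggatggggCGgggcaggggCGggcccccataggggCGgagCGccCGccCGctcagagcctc
Notch3, chr17:32166891-32167140, minus strand: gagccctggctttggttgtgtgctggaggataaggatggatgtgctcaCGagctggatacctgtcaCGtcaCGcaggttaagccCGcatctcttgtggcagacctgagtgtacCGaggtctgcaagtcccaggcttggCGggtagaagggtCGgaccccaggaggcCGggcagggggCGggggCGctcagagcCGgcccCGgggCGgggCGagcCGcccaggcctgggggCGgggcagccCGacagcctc
Jag1, chr2:137116645-137116770, minus strand: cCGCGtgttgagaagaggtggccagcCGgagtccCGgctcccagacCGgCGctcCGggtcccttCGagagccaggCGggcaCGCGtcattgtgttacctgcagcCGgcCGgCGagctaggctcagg
Notch2, chr3:98013288-98013526, plus strand: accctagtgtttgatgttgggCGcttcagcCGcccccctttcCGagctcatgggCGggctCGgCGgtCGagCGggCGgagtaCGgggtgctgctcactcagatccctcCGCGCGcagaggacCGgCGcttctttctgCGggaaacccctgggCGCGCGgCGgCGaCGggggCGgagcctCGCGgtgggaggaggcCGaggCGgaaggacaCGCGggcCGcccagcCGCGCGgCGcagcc
RefSeq's table held start sites for 7 of the 10 members, with 2 for Rbpj, and none for Hes1, Hey1 and Heyl. Over the full 250 bases before the start, Jag2 had 54 CG dinucleotides, a number reached by 5 of the 32851 windows of that length in the table. Notch2 followed with 34, then Rbpj with 25 and 21 at its start sites, whose windows overlap, Jag1 with 20, Notch3 with 17, Notch1 with 16 and Dll4 with 14. The median window held 6 and the upper quartile was 16. Each member's window held more than the median, whether or not the gene was called. The windows of Jag2, Notch1 and Rbpj lie inside the GENCODE M21 bounds of these genes, so they precede a RefSeq start site and not the whole gene. The Jag2 window and the Rbpj window with 25 are annotated as exon throughout. The core motif of RBPJ, TGGGAA on either strand, was found at Rbpj alone among these members, 149 and 65 bases before the first start site, and the nearer of these is the same match that lies 205 bases before the other start site. Of all windows 21.6% held it, and a match is a run of letters, not a binding site.

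Library totals ranged from 21634890 to 30461351 counts. Eed, the targeted gene, stood at 16.8 ± 1.09 CPM (counts scaled to the library total) in WT and 5.64 ± 1.44 in KO before PHx, and at 18.4 ± 3.98 in WT and 4.62 ± 1.14 in KO afterwards (SD, n = 5 each), with no overlap between genotypes. Summed CPM of 10 hepatocyte markers lay between 136000 and 156100 in WT and 81270 and 110700 in KO at baseline, with no overlap, and between 81430 and 125000 in WT and 43340 and 99950 in KO after PHx, and none of these markers was at 0 in a group. KO after PHx replicate 10 stood furthest from its group, with a mean correlation of log2 CPM of 0.884 with the other 4 libraries, against 0.908 to 0.988 for the rest. CPM are scaled by TMM, which assumes that most genes do not differ. At baseline its factors ran from 0.6697 to 0.8058 in WT and from 0.9831 to 1.187 in KO, and a lower factor gives a higher CPM. The gap between the hepatocyte sums at baseline thus rests in part on this scaling. With library size alone the median log2 fold change of all genes tested moved from -0.03 to 0.45 for KO against WT at baseline and from -0.01 to 0.37 after PHx, and the calls split into 24% higher and 0.771% lower, and 26.6% and 2.02%. For the responses to PHx the median moved from 0.04 to 0.40 in WT and from 0.10 to 0.37 in KO, and the splits were 25.9% and 3.97%, and 27.7% and 6.55%.

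All 10 members are annotated as protein coding. Besides Notch3, 3 members share exonic bases with a little-read neighbour: Notch1 with 0610009E02Rik and Gm13568 on the opposite strand (110 and 7 counts in all libraries beside 13522), Dll4 with Gm14207 on the opposite strand (37 beside 926) and Notch2 with Gm42820 on its own strand (12 beside 24714). Of the 10 members, 9 passed the filter on low counts and were tested with edgeR. Hey1 had 1 to 10 counts in each WT library and passed the filter through KO libraries alone. Its place in the counts and medians below is thus tied to its higher values in KO. At baseline 1 of 9 was called higher in KO (Hes1) and 0 were lower, when 11.1% of the 14661 genes tested were called higher and 4.89% lower at an adjusted p of 0.05. After PHx 6 of 9 were called higher (Notch1, Notch3, Jag1, Dll4, Hey1 and Heyl) and 0 lower, against 16% and 8.20% of all genes. At an unadjusted p of 0.05, 3 members were higher at baseline and 6 after PHx, and 0 were lower in either, when 18.3% and 21.6% of all genes were higher and 12.2% and 14.9% lower. With library size alone 3 members were higher at baseline (Hes1, Notch3 and Heyl) and 7 after PHx (Notch2 beside the 6), against 24% and 26.6% of all genes. The median log2 fold change of the 9 tested members was 0.46 at baseline and 1.17 after PHx, beside -0.03 and -0.01 for all genes tested. Without KO after PHx replicates 7 and 11, the libraries highest in Hey1 and Notch3 and left out together after the values were seen, 4 members were called higher after PHx (Notch1, Notch3, Jag1 and Hey1), beside 10.9% of all genes in that fit. Regardless of any test, 1 of the 9 lay above all WT libraries at baseline (Notch3) and 1 below them (Rbpj), when 15.6% and 12.2% of all genes did, so these single cases are no more than the background. After PHx 3 lay above (Notch1, Notch3 and Hey1) and 0 below, beside 7.05% and 2.97% of all genes. For Hey1 the lowest KO library had 9 reads and the highest WT library 10, so its separation is within counting error. In bulk tissue, fewer cells of a type and less RNA per cell cannot be told apart.

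**Figure D1:**
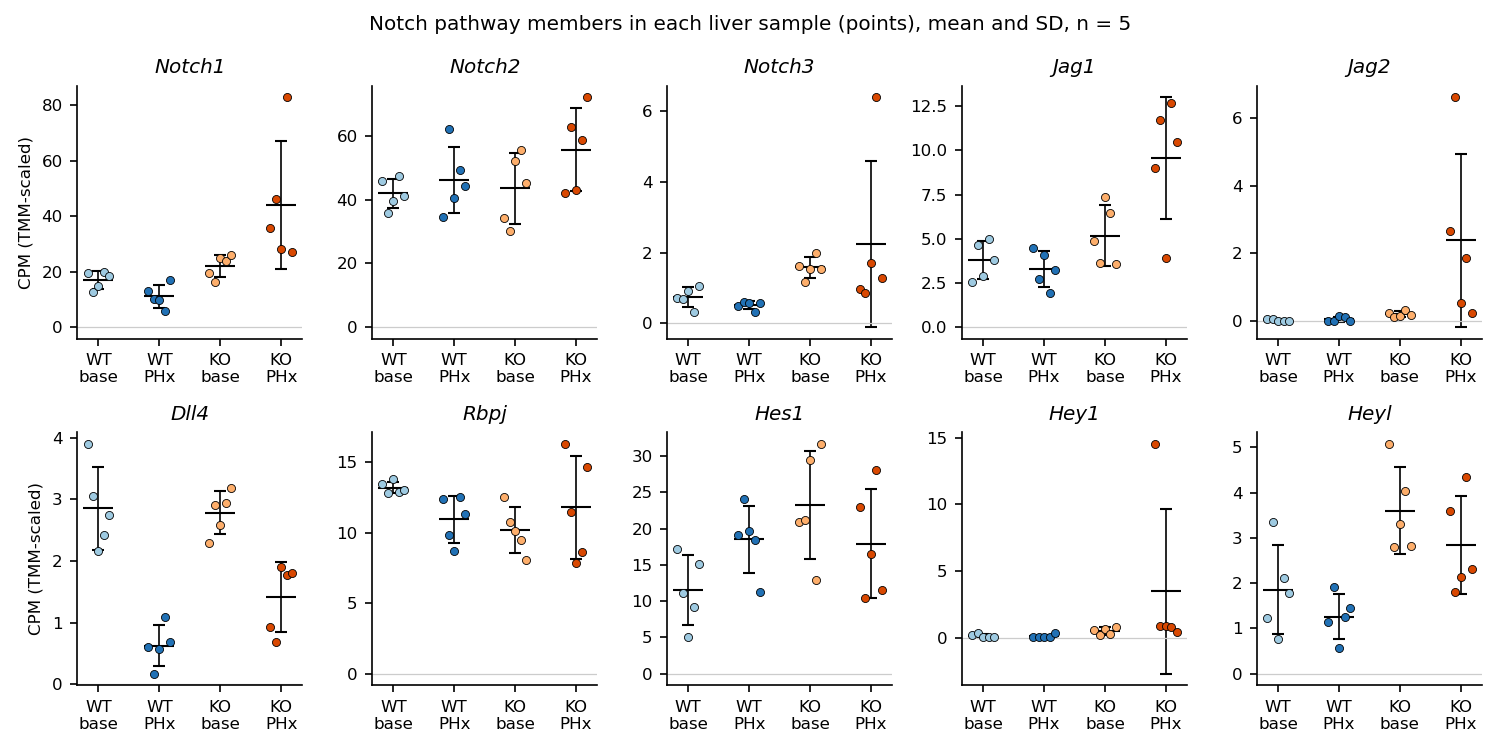
CPM (y axis, linear) of each member in the 4 groups (x axis: WT and KO, baseline and after PHx), with a point per sample and bars for the mean and SD of 5. Notch1 in KO after PHx lies between 26.98 and 82.9 CPM, above the other 3 groups, and single libraries carry the top of Notch3 and Hey1.

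Notch1, a receptor expressed in endothelial and many other cells, separated the genotypes after PHx. Notch1 (ENSMUSG00000026923, mm10 chromosome 2, 26457903 to 26516663) had 19.4, 12.5, 14.8, 19.9 and 18.6 CPM in WT at baseline, replicates 1 to 5, and 12.99, 10.05, 9.63, 5.74 and 16.9 CPM in WT after PHx. The KO mice had 19.6, 16.4, 24.8, 23.7 and 25.9 CPM at baseline, replicates 7, 8, 10, 11 and 12, and 35.9, 46.1, 28.3, 82.9 and 26.98 CPM after PHx in the same order. Every KO library after PHx was above every other library of the study, and replicate 11 was the highest. Of all genes 7.05% had KO wholly above WT after PHx, and 6.19% had KO after PHx wholly above KO at baseline. After PHx Notch1 was 3.98-fold higher in KO than in WT (log2 fold change 1.99 ± 0.30 SE, edgeR adjusted p 0.000103), and it was higher under all 16 alternatives, with log2 fold changes of 1.60 to 2.45. At baseline the genotypes overlapped, and the log2 fold change was 0.37 ± 0.29 (edgeR adjusted p 0.416).

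Notch2, the receptor best known from bile duct formation, overlapped between the groups and was called with library size alone and under no other alternative. Notch2 (ENSMUSG00000027878, chromosome 3, 98013527 to 98150361) had 46.0, 35.9, 39.7, 47.4 and 41.2 CPM in WT at baseline and 34.5, 62.3, 40.5, 49.3 and 44.4 CPM after PHx. KO values were 34.2, 30.3, 52.3, 55.7 and 45.4 CPM at baseline and 42.2, 62.7, 43.2, 58.8 and 72.2 CPM after PHx. The groups overlapped in each comparison, and the log2 fold change of KO against WT was 0.05 ± 0.20 at baseline (edgeR adjusted p 0.89) and 0.27 ± 0.20 after PHx (edgeR adjusted p 0.336). Scaled by library size alone, the value after PHx was 0.66 (edgeR adjusted p 0.0192), and the response to PHx in KO went from 0.36 (edgeR adjusted p 0.175) to 0.63 (edgeR adjusted p 0.0243).

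Notch3, a receptor of smooth muscle cells and pericytes, was low in WT and called higher in KO after PHx. Notch3 (ENSMUSG00000038146, chromosome 17, 32120820 to 32166852) had 0.715, 0.7, 0.926, 0.321 and 1.06 CPM in WT at baseline and 0.48, 0.609, 0.571, 0.319 and 0.584 CPM after PHx, from 73 and 66 reads in all. The KO libraries gave 1.63, 1.18, 1.55, 1.99 and 1.55 CPM at baseline and 0.959, 0.857, 1.72, 6.39 and 1.28 CPM after PHx. KO libraries were above all WT libraries at both stages, and the value of 6.39 CPM, KO replicate 11, was far above the other 4. After PHx the log2 fold change of KO against WT was 2.12 ± 0.50 (edgeR adjusted p 0.00422), and without KO after PHx replicate 11 it was 1.21 (edgeR adjusted p 0.0232). At baseline it was 1.08 ± 0.49 and was not called (edgeR adjusted p 0.139), although the groups did not overlap. With library size alone it was called there (1.56, edgeR adjusted p 0.0375), as it was in a fit of the baseline samples alone (1.11, edgeR adjusted p 0.0149). Notch3 shares 488 exonic bases with Gm17276 on the opposite strand, which had 165 counts in all libraries beside 715 for Notch3, and the strand setting of the counting is not given in the sources used here.

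Jag1, a ligand known for its part in bile duct formation, was higher in KO after PHx. Jag1 (ENSMUSG00000027276, chromosome 2, 137081456 to 137116644) had 2.54, 4.65, 2.88, 5.0 and 3.81 CPM in WT at baseline and 4.49, 2.74, 4.07, 1.95 and 3.23 CPM after PHx. KO values were 4.85, 3.63, 7.38, 6.48 and 3.57 CPM at baseline and 8.99, 11.7, 3.93, 12.7 and 10.5 CPM after PHx. KO after PHx replicate 10, at 3.93 CPM, fell within the WT range and the other 4 lay above it. After PHx Jag1 was 2.90-fold higher in KO (log2 fold change 1.54 ± 0.33, edgeR adjusted p 0.00196), and it was called under all 16 alternatives. At baseline the log2 fold change was 0.46 ± 0.32 (edgeR adjusted p 0.36).

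Jag2, a second Jagged ligand, was close to absent in WT and present in KO after PHx. Jag2 (ENSMUSG00000002799, chromosome 12, 112907819 to 112929776) had 2 reads over the 5 WT libraries at baseline and 7 after PHx, with 3 of 5 libraries at 0 at each stage. The KO libraries had 0.232, 0.127, 0.138, 0.332 and 0.188 CPM at baseline, 26 reads in all, and 2.67, 6.61, 0.534, 1.86 and 0.237 CPM after PHx, 476 reads in all. Every KO library was above every WT library of the same stage, but by few reads. The nearest were KO replicate 8 (3 reads) and WT replicate 1 (1 read) at baseline. After PHx they were KO replicate 12 (5 reads) and WT replicate 3 (4 reads), so these gaps are within counting error. The share of all genes that separate was taken over tested genes, which leave out Jag2. Jag2 did not pass the filter on low counts, and a fit without that filter gave a log2 fold change of 5.31 after PHx (edgeR adjusted p 0.000421), when 10.3% of 25585 genes were called higher in that fit. The same fit gave 3.45 for the response to PHx in KO (edgeR adjusted p 0.00746), in which 9.34% of all genes passed on the higher side, and no call for KO against WT at baseline (edgeR adjusted p 0.102). Jag2 also passed the filter in some fits with other sets of samples, and it is left out of the counts of members called in every fit.

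Dll4, the Delta ligand of endothelial cells, was lower after PHx in WT. Dll4 (ENSMUSG00000027314, chromosome 2, 119325784 to 119335962) had 3.9, 3.05, 2.16, 2.43 and 2.75 CPM in WT at baseline and 0.61, 0.174, 0.571, 1.1 and 0.687 CPM after PHx. The WT groups did not overlap, and Dll4 fell by 2.17 ± 0.39 on the log2 scale (edgeR adjusted p 0.00101), a call that held under all 16 alternatives. The 5 KO mice had 2.29, 2.92, 2.59, 2.95 and 3.19 CPM at baseline and 0.929, 0.681, 1.91, 1.78 and 1.8 CPM after PHx. The KO groups did not overlap either. Of all genes 10.9% lay wholly lower after PHx in WT and 7.73% in KO. In KO the log2 fold change of -0.98 ± 0.37 was not called (edgeR adjusted p 0.0524), while DESeq2 called it (adjusted p 0.0205). After PHx Dll4 was higher in KO than in WT (log2 fold change 1.16 ± 0.38, edgeR adjusted p 0.0326), and this call was lost under 11 of 16 alternatives, 7 of them the loss of a single replicate (WT after PHx 1, 2, 3 or 5, or KO after PHx 10, 11 or 12), with adjusted p from 0.0525 to 0.173. At baseline the genotypes overlapped (log2 fold change -0.04 ± 0.37, edgeR adjusted p 0.96, turning to 0.45 with library size alone and to 0.03 without the filter).

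Endothelial markers moved with Dll4 in part. Of 14 endothelial markers, 3 were lower after PHx in WT (Kdr, Oit3 and Fcgr2b) and 4 in KO (these 3 and Eng), with Lyve1 higher in KO, when 8.68% and 12.1% of all genes were lower in these responses and 17.5% were higher in KO. Their summed level ran from 315.7 to 359.8 CPM in WT at baseline, 170.7 to 292.7 after PHx, 382.2 to 447.8 in KO at baseline and 177 to 349.3 after PHx, and none was at 0 in a group. The sums of KO lay above those of WT at baseline and overlapped with them after PHx. Between genotypes 1 of 14, Cdh5, was called, higher in KO at both stages, a share under the 11.1% and 16% of all genes. The part of these cells in the results for Dll4 and Notch1 was not tested.

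Rbpj, which carries the DNA binding of the pathway, was not called in any of the 5 contrasts. Rbpj (ENSMUSG00000039191, chromosome 5, 53466152 to 53657362) had 13.5, 12.8, 13.8, 12.9 and 13.03 CPM in WT at baseline and 12.4, 9.83, 8.68, 12.5 and 11.3 CPM after PHx. KO values were 12.5, 10.7, 10.1, 9.51 and 8.07 CPM at baseline and 16.3, 11.5, 7.86, 8.64 and 14.7 CPM after PHx. At baseline the KO libraries all lay under the WT libraries, yet the log2 fold change of -0.37 ± 0.20 was not called (edgeR adjusted p 0.21) and turned to 0.12 with library size alone. After PHx the groups overlapped (0.11 ± 0.20, edgeR adjusted p 0.729). In WT the libraries after PHx all lay under those at baseline, as in 10.9% of all genes, and the response of -0.27 ± 0.20 was not called (edgeR adjusted p 0.355). The response in KO was 0.21 ± 0.20 (edgeR adjusted p 0.427).

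Of the target genes, Hes1, a transcriptional repressor and the most abundant member per length, was called higher in KO at baseline. Hes1 (ENSMUSG00000022528, chromosome 16, 30064384 to 30067796) had 17.2, 11.1, 5.04, 9.17 and 15.2 CPM in WT at baseline and 19.1, 24.1, 19.7, 18.4 and 11.3 CPM after PHx. The KO libraries had 20.97, 21.2, 29.4, 12.96 and 31.7 CPM at baseline and 22.95, 10.4, 16.5, 28.2 and 11.6 CPM after PHx. At baseline 4 of 5 KO libraries were above all WT libraries, and the log2 fold change was 1.01 ± 0.33 (edgeR adjusted p 0.0431). This call was lost without any 1 of 7 libraries (WT baseline 2, 3 or 4, or KO baseline 7, 8, 10 or 12), with adjusted p up to 0.105. After PHx the genotypes overlapped (log2 fold change -0.05 ± 0.33, edgeR adjusted p 0.933, turning to 0.39 with library size alone).

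Hey1, a repressor of the HEY family, was at the edge of detection in WT and higher in KO after PHx. Hey1 (ENSMUSG00000040289, chromosome 3, 8663359 to 8667256) had 0.195, 0.4, 0.0515, 0.0459 and 0.0917 CPM in WT at baseline and 0.0436, 0.087, 0.038, 0.0709 and 0.343 CPM after PHx, from 15 and 16 reads in all. The 5 KO mice had 0.564, 0.211, 0.69, 0.291 and 0.845 CPM at baseline and 14.5, 0.879, 0.877, 0.806 and 0.426 CPM after PHx. Every KO library after PHx was above every WT library after PHx, and KO replicate 7 was far above the other 4. The nearest were KO replicate 12 with 9 reads (0.426 CPM) and WT replicate 5 with 10 reads (0.343 CPM). Their order rests on the scaling of the libraries and lies within counting error. After PHx the log2 fold change was 4.82 ± 1.00 (edgeR adjusted p 0.00171), and without KO after PHx replicate 7 it was 2.63 (edgeR adjusted p 0.00873). With DESeq2 Hey1 had no adjusted p, here or in the other 4 contrasts. At baseline the log2 fold change was 1.72 ± 0.97 and was not called (edgeR adjusted p 0.24).

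Heyl, a HEY relative found in vascular smooth muscle, was called higher in KO after PHx. Heyl (ENSMUSG00000032744, chromosome 4, 123233556 to 123249875) had 1.24, 3.35, 0.772, 2.11 and 1.79 CPM in WT at baseline and 1.13, 1.91, 0.571, 1.24 and 1.44 CPM after PHx. KO values were 5.08, 2.79, 3.31, 4.03 and 2.82 CPM at baseline and 3.6, 1.8, 2.14, 4.34 and 2.32 CPM after PHx. The groups overlapped at both stages, and the log2 fold change was 0.96 ± 0.38 at baseline (edgeR adjusted p 0.0961) and 1.17 ± 0.39 after PHx (edgeR adjusted p 0.0333). The call after PHx was lost under 9 of 16 alternatives, 6 of them the loss of a single replicate (WT after PHx 1, 3, 4 or 5, or KO after PHx 7 or 11). The baseline value passed with library size alone (1.43, edgeR adjusted p 0.0189), in a fit of the baseline samples alone (0.98, edgeR adjusted p 0.0359), without WT baseline replicate 2 (1.28, edgeR adjusted p 0.0386) and with DESeq2 (0.99, adjusted p 0.0483).

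**Figure D2:**
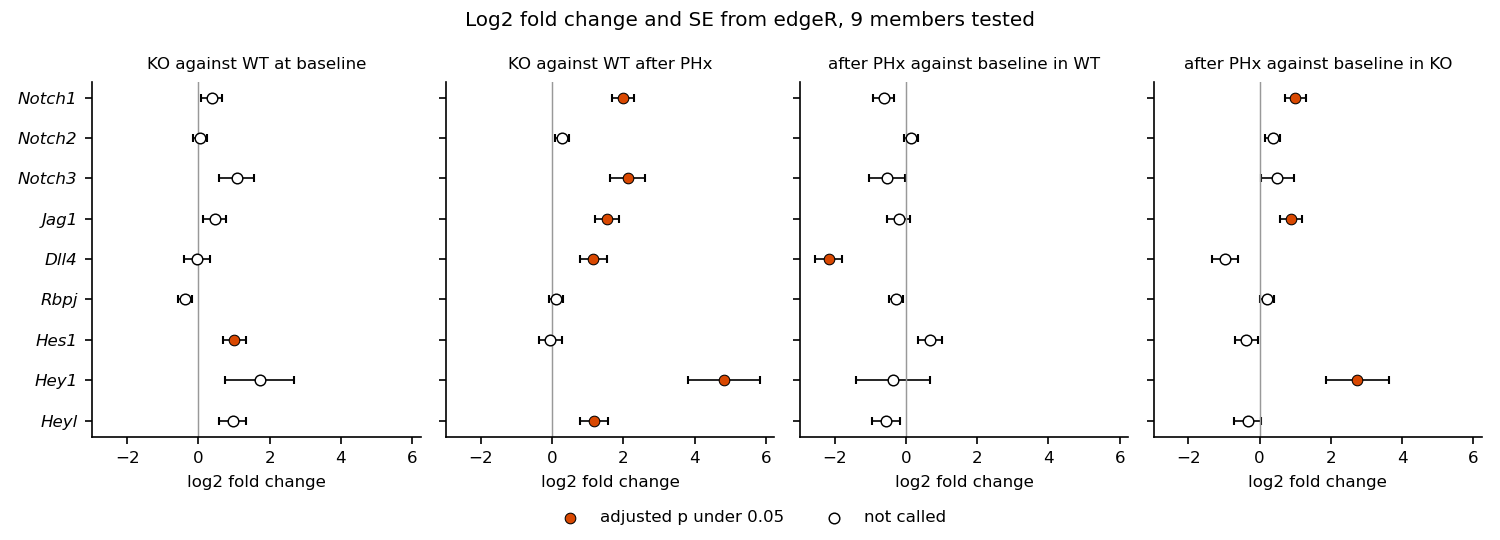
Log2 fold change (x axis) with SE for the 9 tested members (y axis) in 4 comparisons, filled where the edgeR adjusted p was under 0.05. After PHx 6 members are filled on the higher side, from 1.16 for Dll4 to 4.82 for Hey1, while Notch2, Rbpj and Hes1 lie near 0.

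Markers of other cell types were also compared between the genotypes, for which 11.1% of all genes were called higher and 4.89% lower at baseline, and 16% and 8.20% after PHx. Of the cholangiocyte markers 5 of 10 tested were higher in KO at baseline and 6 of 10 after PHx (Krt19, Krt7, Epcam, Sox9, Cldn7 and Anxa13), and none was lower. The summed level of the 11 markers used ran from 121.3 to 170.8 CPM in WT at baseline, 145.5 to 683.4 after PHx, 302.2 to 620 in KO at baseline and 410.4 to 1034 after PHx. Tm4sf4 and Spp1 made up 61.19% to 93.8% of that sum in each library, and neither was called between genotypes after PHx (log2 fold changes -0.01 and 1.56, edgeR adjusted p 0.991 and 0.0902). The other 9, set apart after the values were seen, summed to 22.9 to 50.17 CPM in WT and 65.26 to 122.7 in KO at baseline, and to 27.34 to 60.58 in WT and 70.56 to 252.9 in KO after PHx, with no overlap between genotypes at either stage. Of 14 stellate and fibroblast markers 8 were higher in KO at each stage and none was lower, and their sum ran from 196.6 to 323.1 CPM in WT at baseline, 209.2 to 299.8 after PHx, 516.6 to 698.5 in KO at baseline and 378.1 to 641.7 after PHx. Of the smooth muscle and pericyte markers 0 of 5 tested were called at baseline and 1 after PHx (Mcam, higher), and the sum of all 7 overlapped between genotypes at both stages (104.1 to 137.2 CPM at baseline and 59.77 to 135.3 after PHx). Of 10 macrophage markers 3 were higher in KO at baseline and 1 after PHx, the latter a share under that of all genes. Their sum ran from 135.4 to 229.3 CPM in WT at baseline, 61.22 to 317.3 after PHx, 311.8 to 411.6 in KO at baseline and 69.07 to 334 after PHx. Of 10 hepatocyte markers 4 were lower in KO at baseline and 3 after PHx, and of 8 cell cycle markers 2 were higher at baseline and 0 were called after PHx. No marker of these lists was at 0 in all libraries of a group. The part of these cells in the results for Notch1, Notch3, Jag1, Jag2, Hes1, Hey1 and Heyl was not tested. Among the KO libraries after PHx, replicate 7, highest in Hey1 and second in Jag2, had the highest cholangiocyte sum (1034 CPM, and 252.9 for the 9 markers without Tm4sf4 and Spp1). Replicate 8, highest in Jag2, had 978 and 183.5 CPM, and replicate 11, highest in Notch1, Notch3, Jag1 and Heyl, had 608.3 and 236.1 CPM, against 70.56 to 86.92 CPM for the 9 markers in replicates 10 and 12. Members did not all follow these sums: replicates 7 and 8 were the lowest in Notch3 (0.959 and 0.857 CPM), Jag1 was higher in replicate 12 (10.5 CPM) than in replicate 7 (8.99 CPM), and Hey1 was alike in replicates 8 and 10 (0.879 and 0.877 CPM). Replicate 7 was also the highest in the stellate and fibroblast sum (641.7 CPM) and the lowest in the macrophage (69.07 CPM) and endothelial (177 CPM) sums. Replicate 11 was the highest in the endothelial (349.3 CPM), macrophage (334 CPM) and smooth muscle and pericyte (135.3 CPM) sums. Some of these places rested on the leading pair of markers. Without Dcn and Col3a1, replicate 10 was the highest in the stellate and fibroblast sum (240.4 CPM, beside 223.2 in replicate 7). Without Cd5l and Clec4f, replicate 8 was the highest in the macrophage sum (212.3 CPM, beside 184 in replicate 11). The other places were kept without the leading pair of each list.

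**Figure D3:**
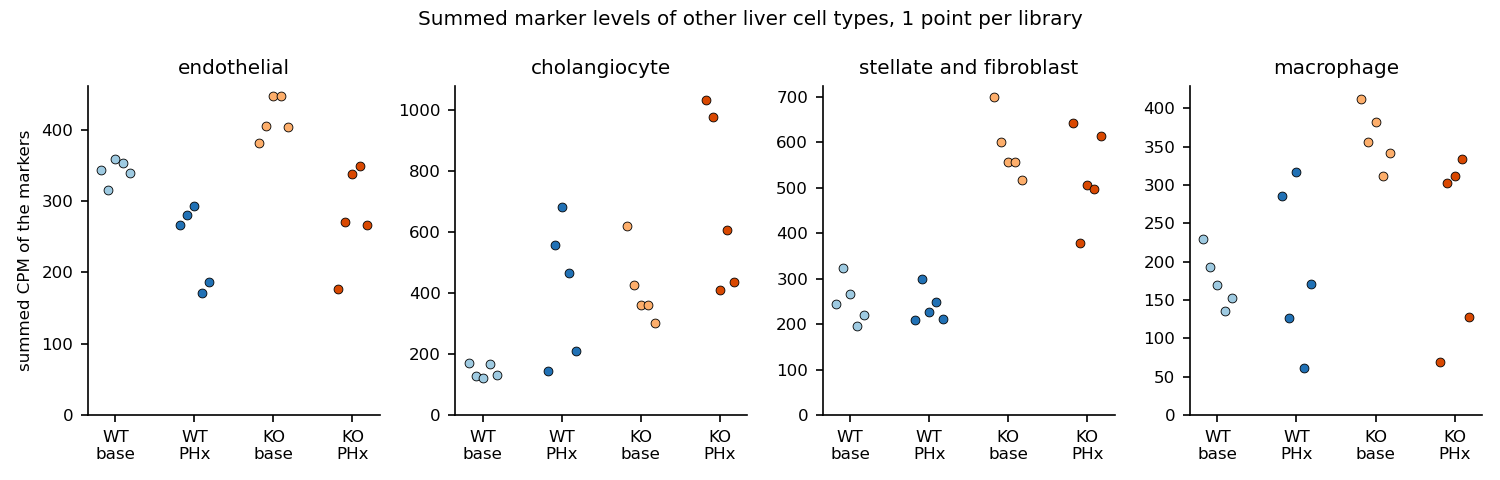
Summed CPM (y axis, linear from 0) of 14 endothelial, 11 cholangiocyte, 14 stellate and fibroblast and 10 macrophage markers in the 4 groups (x axis), with a point per library. The stellate and fibroblast sum separates KO from WT at both stages, and the cholangiocyte, endothelial and macrophage sums separate them at baseline and overlap after PHx.

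The ratio of KO to WT mean CPM was also taken at each time after PHx. For Notch1 it was 2.08 at 30 h, 5.65 at 40 h and 3.62 at 48 h, and for Jag1 2.33, 2.44 and 4.00, so the direction was the same at each time. Notch3 had ratios of 2.67, 6.87 and 2.01, Heyl 2.05, 2.61 and 2.01, and Hey1 9.77, 13.5 and 37.2. Single libraries moved these ratios by over 1.5 times, so that no order over time can be read from them. Without KO replicate 11 the 40 h ratio was 2.88 for Notch1, 1.15 for Jag1, 2.91 for Notch3 and 1.72 for Heyl, and without KO replicate 10 it was 3.73 for Jag1 and 10.8 for Notch3. Without KO replicate 7 the 48 h ratio of Hey1 was 4.24, and without KO replicate 8 or WT replicate 4 or 5 it was 70.2, 22.4 or 108.7. Leaving out WT replicate 5 took Notch1 at 48 h to 7.14, and leaving out WT replicate 2 or 3 took Heyl at 40 h to 5.67 or 1.69 and Dll4 to 3.23 or 10.6, and WT replicate 2 took Hey1 at 40 h to 22.1. Dll4 was higher in KO at 30 h (2.95) and 40 h (4.95) and not at 48 h (0.902), where KO had 0.929 and 0.681 CPM and WT 1.1 and 0.687 CPM. The KO values of Jag2 were higher at the later times, with 0.237 CPM at 30 h, 0.534 and 1.86 at 40 h, and 2.67 and 6.61 at 48 h. With 1 or 2 mice per genotype and time these ratios carry no test, and a fit with a time term kept each of the KO against WT calls except that of Dll4 (log2 fold change 1.14, edgeR adjusted p 0.0525).

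The response to PHx was taken within each genotype. In WT 0 of 9 members were called higher and 1 (Dll4) lower, when 11.4% of all genes were called higher and 8.68% lower. With library size alone 1 was higher and 1 lower (25.9% and 3.97% of all genes), and at an unadjusted p of 0.05 the counts were 0 and 2 (19.2% and 14.8%). In KO 3 members were higher (Notch1, Jag1 and Hey1) and 0 lower, against 17.5% and 12.1% of all genes. DESeq2, which gave Hey1 no adjusted p, called 2 higher and 1 lower (21% and 13.8% of all genes). Scaling by library size alone gave 4 (Notch2 as well) and 0 (27.7% and 6.55%), and at an unadjusted p of 0.05 the counts were 3 and 1 (24.6% and 18.1%). The median log2 change of the 9 tested members was -0.36 in WT and 0.36 in KO, beside 0.04 and 0.10 for all genes.

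In KO Notch1 rose 2.00-fold after PHx (log2 fold change 1.00 ± 0.29, edgeR adjusted p 0.0171), Jag1 1.84-fold (0.88 ± 0.32, edgeR adjusted p 0.0436) and Hey1 6.70-fold (2.74 ± 0.88, edgeR adjusted p 0.026). With the mouse as a replicate block, over the 9 mice numbered at both stages, the same responses were 0.88 for Notch1 (edgeR adjusted p 0.0591), 0.86 for Jag1 (edgeR adjusted p 0.134) and 1.45 for Hey1 (edgeR adjusted p 0.198), so none of these 3 passed. The Hey1 response was 0.55 (edgeR adjusted p 0.539) without KO after PHx replicate 7, and it was also lost without KO baseline replicate 7, 8 or 11. The Notch1 response was 0.61 (edgeR adjusted p 0.0684) without KO after PHx replicate 11. The Jag1 response was lost under 12 of 17 alternatives, among them the fit without the filter (0.85, edgeR adjusted p 0.0792) and the loss of any 1 of 8 libraries (KO baseline 7, 8, 11 or 12, or KO after PHx 7, 8, 11 or 12), with adjusted p up to 0.145. Without KO after PHx replicates 7 and 11 together, 0 members were called higher, beside 11.1% of all genes.

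Mouse by mouse, Notch1 was lower after PHx in 4 of 4 numbered WT mice (changes of -1.71 to -0.13 in log2 of CPM plus 0.5) and higher in 5 of 5 KO mice (0.06 to 1.78). In WT as a group the Notch1 response of -0.62 ± 0.29 was not called (edgeR adjusted p 0.142). Jag2 was higher after PHx in 5 of 5 KO mice (0.10 to 3.50) and Jag1 in 4 of 5 (-0.83 to 1.56). Dll4 was lower after PHx in 4 of 4 WT mice (-2.40 to -0.87) and in 5 of 5 KO mice (-1.53 to -0.36). Heyl was lower in 4 of 4 WT mice (-0.67 to -0.24) and 4 of 5 KO mice, and Rbpj in 4 of 4 WT mice (-0.64 to -0.04) and 2 of 5 KO mice. Notch2 was higher in 4 of 4 WT mice (0.03 to 0.78) and 4 of 5 KO mice, and Hes1 in 3 of 4 and 2 of 5. The responses of Heyl, Rbpj, Notch2 and Hes1 were not called in either genotype with TMM.

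**Figure D4:**
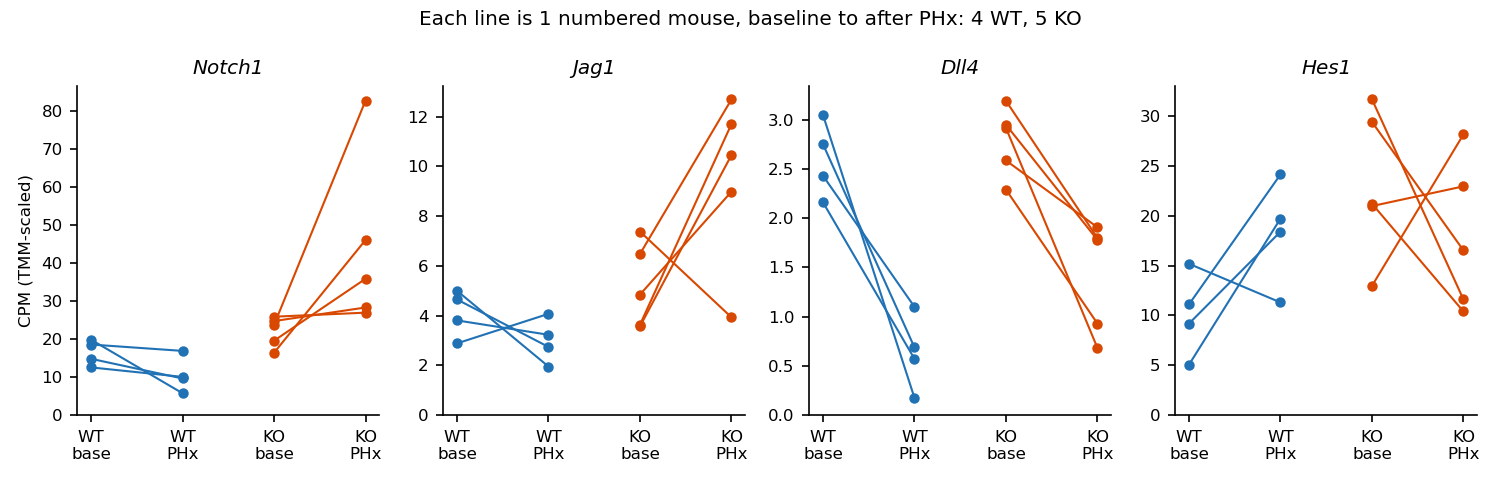
CPM (y axis, linear from 0) at baseline and after PHx (x axis) for Notch1, Jag1, Dll4 and Hes1, with a line per numbered mouse, 4 WT and 5 KO. Notch1 goes down in all 4 WT lines and up in all 5 KO lines, and Dll4 goes down in every line.

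The difference between the responses, KO minus WT, was called for 0 of 9 members by edgeR, when 0.164% of all genes were called higher and 0.225% lower. At an unadjusted p of 0.05, 4 members were higher (Notch1, Jag1, Dll4 and Hey1) and 1 lower (Hes1), beside 7.33% and 6.02% of all genes, and DESeq2 called 1 higher, Notch1, beside 1.31%. For Notch1 the difference was 1.62 ± 0.42 on the log2 scale (edgeR adjusted p 0.0938), with DESeq2 1.61 (adjusted p 0.0194), without KO after PHx replicate 10 1.74 (edgeR adjusted p 0.0244), and over all 26 alternatives adjusted p ran from 0.0194 to 0.304. For Hes1 the difference was -1.06 ± 0.46 (edgeR adjusted p 0.332). The KO responses of Notch1, Jag1 and Hey1 are therefore not shown to differ from those in WT by edgeR at the threshold.

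Levels were compared between members per kilobase of exon (RPKM from the TMM-scaled CPM). In WT at baseline the order was Hes1 (mean 5.67 RPKM), Notch2 (3.90), Notch1 (1.20), Rbpj (1.04), Dll4 (0.742), Jag1 (0.648), Heyl (0.362), Notch3 (0.0919), Hey1 (0.0480) and Jag2 (0.0033). Ranges of neighbours in that order overlapped except between Notch2 and Notch1, Heyl and Notch3, and Hey1 and Jag2. In KO after PHx the order was Hes1 (8.80), Notch2 (5.18), Notch1 (3.10), Jag1 (1.64), Hey1 (1.07), Rbpj (0.925), Heyl (0.555), Dll4 (0.368), Jag2 (0.342) and Notch3 (0.277), and each pair of neighbours overlapped. Single libraries set some of these means: without the highest library of the group, in KO after PHx Hey1 was 0.229 RPKM (without replicate 7), Jag2 0.19 (without replicate 8) and Notch3 0.149 (without replicate 11), so the fifth place of Hey1 rested on 1 library. In WT at baseline Hey1 was 0.0294 RPKM without replicate 2 and Jag2 0.00179 without replicate 1.

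Among 11948 protein-coding genes, those whose centred log2 values over the 20 samples differed least from each called member were named, 3 a member, by the root mean square (RMS) difference. Apbb1 (RMS 0.33 log2 units), Plk2 (0.39) and Slc29a3 (0.39) were nearest to Notch1, whose own SD was 0.80. Apbb1 had a mean of 0.666 CPM in WT at baseline, 0.270 in WT after PHx, 1.04 in KO at baseline and 3.36 in KO after PHx. Nearest to Jag1 (SD 0.67) were Zfp516 (0.31), Swap70 (0.31) and Csrnp2 (0.32), and to Notch3 (SD 0.68) Mapk8ip1 (0.35), Pld3 (0.38) and Lamb1 (0.38). Dll4 (SD 0.74) was nearest to Pla2r1 (0.33), Ctsf (0.38) and Lama4 (0.38), and Pla2r1 had means of 2.61 and 1.03 CPM in WT and 3.04 and 1.44 CPM in KO, before and after PHx. For Hes1 (SD 0.62) these were Stoml1 (0.39), Zdhhc1 (0.41) and Nfkbie (0.45), for Hey1 (SD 1.04) Kcnj8 (0.39), Tgif2 (0.47) and Fam198b (0.57), and for Heyl (SD 0.63) Dennd2a (0.37), Bgn (0.43) and Arhgap45 (0.44).

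Beyond the members, a list of 58 other Notch pathway genes was drawn up, of which 51 were tested. At baseline 6 of 51 were higher in KO and 3 lower, shares near the 11.1% and 4.89% of all genes. After PHx 18 were higher and 2 lower, beside 16% and 8.20% of all genes. With library size alone 15 were higher and 0 lower at baseline (24% and 0.771% of all genes), and 24 and 0 after PHx (26.6% and 2.02%). A fit of the baseline samples alone gave 10 higher and 6 lower (21.4% and 18% of all genes). The median log2 fold change was 0.12 at baseline and 0.37 after PHx. Without KO after PHx replicates 7 and 11, 11 were higher after PHx (10.9% of all genes), and in a fit of the samples after PHx alone 9 were higher and 0 lower (8.12% and 1.57%). After PHx the higher genes made up 5 of 7 of the nuclear complex (Maml1, Maml2, Maml3, Snw1 and Ep300, named after their values were seen), 4 of 11 corepressors, 5 of 13 genes of endocytosis and ubiquitination, 2 of 10 of receptor cleavage, the ligand Dll1, the non-canonical ligand Dlk1 and 0 of 5 enzymes that modify receptors and ligands.

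Several of these genes were higher in KO at both stages. Dlk1, a non-canonical ligand of fetal liver, had 0 counts in all 5 WT libraries at baseline, while KO had 0.853 ± 0.798 CPM (SD, n = 5). Against a limit of 3 counts over the WT group, 0.0305 CPM, which covers counting error only, the KO mean of Dlk1 was at least 28-fold higher. The KO libraries ran from 0.0423 to 1.95 CPM, so the lowest lay close to that limit. After PHx the log2 fold change of Dlk1 was 3.47 ± 1.02 (edgeR adjusted p 0.0212). Aph1c, a gamma-secretase subunit, had 0.689 ± 0.328 CPM (SD, n = 5) in WT and 2.89 ± 0.576 in KO at baseline, and 0.402 ± 0.161 and 3.98 ± 1.53 after PHx, with log2 fold changes of 2.05 and 3.29 (edgeR adjusted p 0.000843 and 8.5e-06). Its near copy Aph1b was higher by 1.79 ± 0.38 after PHx, and counts of the pair are uncertain because reads that fit both copies were not counted. Neurl1a, an E3 ligase for ligands, was higher by 3.29 ± 0.83 at baseline and 2.39 ± 0.73 after PHx.

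After PHx Numbl, which encodes a relative of the Notch antagonist NUMB, went from 1.32 ± 1.26 CPM (SD, n = 5) in WT to 14.4 ± 11.6 in KO (log2 fold change 3.43 ± 0.67, edgeR adjusted p 0.000946). The corepressor genes Tle3 (2.31 ± 0.35) and Ctbp2 (2.75 ± 0.52) and the ubiquitin ligase gene Dtx1 (3.03 ± 0.58) were higher with no overlap between genotypes. Tle3 had 16.1 ± 7.76 CPM in WT and 79.7 ± 36.5 in KO (SD, n = 5 each). Psen2, a catalytic subunit of gamma-secretase, and Kat2b, an acetyltransferase of the activating complex, were the 2 lower genes, with log2 fold changes of -1.12 ± 0.29 and -0.58 ± 0.14 (Psen2 named after its value was seen). At baseline Lfng, which adds sugars to Notch receptors, was higher by 1.06 ± 0.31, Dtx3 by 1.30 ± 0.33 and Dtx4 by 0.79 ± 0.26, while Itch (-0.64 ± 0.19), Kat2b (-0.63 ± 0.14) and Mib1 (-0.61 ± 0.20, named after its value was seen) were lower, the last 3 not with library size alone.

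**Figure D5:**
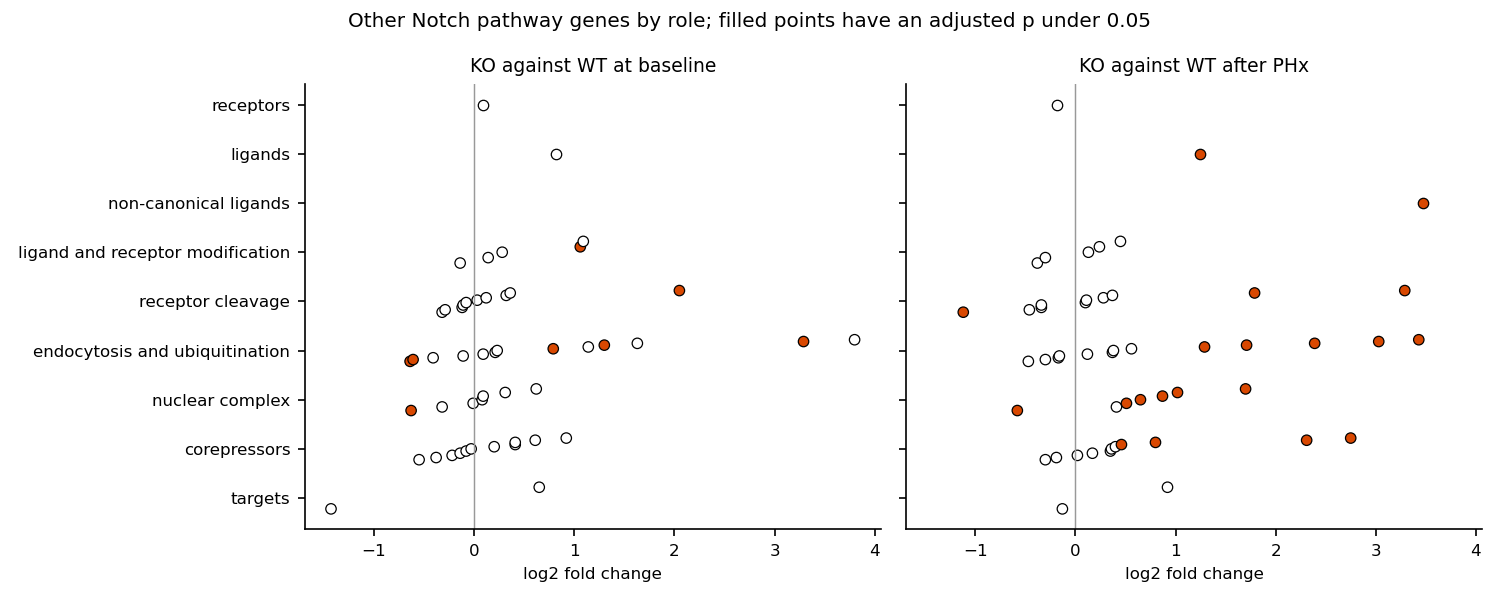
Log2 fold change of KO against WT (x axis) for the tested genes of the wider list by role (y axis), at baseline and after PHx, filled where the edgeR adjusted p was under 0.05, with Dlk1 left out at baseline because WT had 0 counts. After PHx 18 points are filled on the higher side, most of them in the nuclear complex, the corepressors and endocytosis and ubiquitination.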

How the data were processed

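Liver RNA from 20 samples was measured. The deposited values are unnormalized read counts by Ensembl identifier, with a file for each library. According to the series' design text, libraries were made from 1000 ng of RNA (integrity number over 8) with a TruSeq kit and sequenced from both ends on a NovaSeq 6000. That text names FastQC 0.11.5 and fastp 0.20.0, alignment to mm10 and counting of uniquely mapped reads, while the submitters' processing notes name Trimmomatic 0.36 and FastQC 0.11.5. The aligner, counter, strand setting and annotation release are not given in the sources used here.

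Of the 46603 identifiers, 46091 matched GENCODE M21. Differential expression was tested two-sided with edgeR 4.0.16 (quasi-likelihood, TMM, filterByExpr on 4 groups, 14661 genes) in R 4.3.3, with 1 fit of all 20 samples, Benjamini-Hochberg adjustment over all genes and a threshold of 0.05. CPM use TMM-scaled totals and were not themselves tested. The script was tested on simulated data. Alternatives were DESeq2 1.42.0, library size alone, no filter, the compared samples alone, a time term, a replicate block, each replicate left out, and, added after the data were seen, KO after PHx replicates 7 and 11 left out together. The labels tie samples to mice, and 9 mice are numbered at both stages (18 samples). Residual correlations of their pairs ran from -0.0653 to 0.176.

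The members and lists were chosen with earlier results of these data known. Named are all members, at most 8 wider-list genes with the largest called change per comparison of genotypes, and the 3 genes nearest in pattern to each called member (protein-coding, mean of at least 1 CPM, log2 of CPM plus 0.5). One cholangiocyte marker of the chosen list is not reported here and was left out of that list's counts and sums.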

Additional observations from a re-analysis of the deposited data

Results flagged for a closer look

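In 3 of the 40 groups of 5 values (10 members in 4 groups) the highest sample lay further from the rest than Dixon's 95% limit allows, when chance flags about 1 in 20 groups. Notch3 in KO after PHx was 6.39 CPM in replicate 11, and the next value was 1.72 CPM. Hey1 in KO after PHx was 14.5 CPM in replicate 7, and the next was 0.879 CPM. Hey1 in WT after PHx was 0.343 CPM in replicate 5, and the next was 0.087 CPM. Without the first of these libraries the log2 fold change of Notch3 after PHx went from 2.12 to 1.21, and without the second that of Hey1 went from 4.82 to 2.63, both still past the threshold (edgeR adjusted p 0.0232 and 0.00873). The cause of these values was not tested.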

How the results depend on the processing

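Over 45 log2 fold changes of members and 803 alternative values, 719 kept their direction and side of the threshold, 49 lost a call, 13 gained 1 and 22 turned. Counts of calls cover the 9 members of the main test. Members called higher at baseline (1) were 2 with DESeq2 (14.6% of all genes), 3 with library size alone (24%) and 3 in a fit of the compared samples alone (21.4%). With single replicates left out they were 0 to 1 (8.24% to 10.1% of all genes). KO against WT after PHx (6 higher) had 7 with library size alone (26.6% of all genes), 5 with DESeq2 (18.2%, no adjusted p for Hey1) and 5 with the time term (15.1%). It had 4 without the filter (10.3%), 4 in the compared samples alone (8.12%) and 4 without KO after PHx replicates 7 and 11 (10.9%). With single replicates left out it had 4 to 6 (13.1% to 19.9%). Higher after PHx in WT (0) became 1 with library size alone (25.9% of all genes). Higher after PHx in KO (3) became 1 in the compared samples alone (13.1% of all genes) and 0 with the replicate block of mice (10.8%). It became 0 without KO after PHx replicates 7 and 11 (11.1%) and 4 with library size alone (27.7%). With single replicates left out it was 1 to 3 (12.1% to 22.8%), and 1 without KO baseline 7, 8 or 11 or KO after PHx 7 or 11. That count was 2 without the filter (9.34% of all genes) and 2 with DESeq2 (21%). Jag2, outside these counts, passed the filter with the block (2.84, edgeR adjusted p 0.0378) and in other fits that kept KO after PHx replicates 7, 8, 10 and 11, so its calls there say nothing of stability. Lower after PHx in KO (0) became 1 with DESeq2 (13.8% of all genes) and 0 to 1 with single replicates left out. Higher for the difference of responses (0) became 1 with DESeq2 (1.31%) and 0 to 1 with single replicates left out. In both cases it was 1 without KO after PHx replicate 10, when 17.6% of all genes were lower in KO and 2.76% higher for the difference. The block changed no call of a member other than those of Notch1, Jag1 and Hey1 in KO.

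With library size alone, values that turned were Dll4 (0.45) and Rbpj (0.12) at baseline, Hes1 after PHx (0.39), and the WT responses of Jag1 (0.15), Hey1 (0.02) and Rbpj (0.10). Without the filter Dll4 at baseline was 0.03. Without KO after PHx replicates 7 and 11 the KO response of Notch3 was -0.28 and the difference for Heyl -0.27. With single replicates left out, ranges that crossed 0 were -0.05 to 0.19 for Notch2 and -0.12 to 0.10 for Dll4 at baseline, -0.30 to 0.08 for Hes1 and -0.0029 to 0.22 for Rbpj after PHx, -0.33 to 0.00063 for Jag1 and -1.26 to 0.36 for Hey1 in the WT response, -0.41 to 0.75 for Notch3 in the KO response and -0.12 to 0.40 for the difference for Heyl. None of these turned values was a call. The cause was not tested. Depth limits Jag2, Hey1 and Notch3, which rest on 2 to 73 reads per WT group.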
